A study of Mus musculus with 6 samples.

Results

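Oprk1, Crhbp, Scara3, Pax7, Rasgef1a, Dsel and Clstn3 are among the genes with the deepest falls after loss of Phf6, outside the antigen receptor loci. They were found by symbol in the deposited table and make up 7 of its 23306 genes with an identifier. The 7 were chosen by their measured difference between knockout and wild type, so that difference is given as a description, without a test. The series holds 6 samples of an isogenic mouse T-cell leukaemia (T-ALL, the acute lymphoblastic form) on the C57BL/6 strain, taken from bone marrow, from which polyA RNA was sequenced. Phf6 was intact in 3 (wild type) and deleted in 3 (knockout). Deletion used a Cre recombinase switched on by injected tamoxifen, with corn oil as the vehicle control, so drug and gene loss cannot be told apart. The sources used here do not give the promoter of the Cre, the lesion that drives the leukaemia or the age of the mice. They also do not say whether the 3 samples per group are separate animals, so p-values measure only the spread between these samples. That spread was wider than counting error (chi-square per degree of freedom 13.1 to 57.5 between libraries of a group). How much of it is technical was not tested. Values of a gene are always listed in the order of libraries 1 to 3.

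PHF6 is an X-linked nuclear protein with PHD-like zinc fingers, and mutations of its gene recur in T-ALL of patients. The 7 genes belong to no common textbook pathway. Oprk1 encodes the kappa opioid receptor, a Gi-coupled receptor for dynorphins, and Crhbp a secreted protein that binds corticotropin-releasing hormone (CRH) and urocortin and keeps them from their receptors. Scara3 encodes a membrane protein of the class A scavenger receptor family, Pax7 the paired-box transcription factor of muscle satellite cells, and Rasgef1a an exchange factor that loads GTP onto RAS family proteins. Dsel encodes an epimerase that turns glucuronic into iduronic acid in dermatan sulfate, and Clstn3 calsyntenin 3, an adhesion protein of synapses that binds neurexins. Oprk1, Crhbp and Clstn3 are best known from the brain and Pax7 from muscle.

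Libraries held 46067511 to 54953145 reads in genes. T-lineage markers were abundant in every library, with summed levels of 7124 to 7728 CPM (reads scaled to a common library total) in wild type and 5887 to 6977 CPM in knockout, over 14 of 15 listed markers, of which 3 fell. Over all tested genes 3.43% fell and 5.32% rose in the test given below. Markers of other blood cells moved with the groups. The sum of 16 neutrophil markers was 126, 476 and 203 CPM with Phf6 intact and 1014 to 1333 CPM without it, and 9 of the 16 rose. For 13 monocyte and macrophage markers it was 56.3 to 122.5 CPM and 179 to 296 CPM (6 rose), and for 11 B-cell markers 5.70 to 7.82 CPM and 13.4 to 21.9 CPM, with 7 of 9 tested rising (exact permutation p = 0.1 for each, two-sided, the smallest that 3 against 3 allows). The sums for stroma and endothelium (8 of 10 markers measured) were 1222 to 1269 and 1492 to 1816 CPM. Pdgfrb alone had a mean of 785 CPM over the 6 libraries, and of the 5 tested markers 1 rose and 1 fell. The sums for erythroid cells overlapped (5.92 to 11.9 and 7.98 to 18.2 CPM). The samples are bulk tissue, so fewer cells of a type and less RNA per cell cannot be told apart, and the part of these other cells in the results below was not tested.

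To show what stands in front of these genes, their start regions were examined. RefSeq start regions (GRCm38.p6, 250 bases before to 50 after an annotated start) were matched by symbol for 5 of the 7 genes, Crhbp, Pax7, Rasgef1a, Dsel and Clstn3, with 2 start sites each for Rasgef1a and Clstn3; Oprk1 and Scara3 had no entry. The part that lies upstream of both the RefSeq and the GENCODE start is printed for 4 of them, 5′ to 3′ on the gene's strand, with GC boxes (GGGCGG or CCGCCC) and CCAAT boxes (CCAAT or ATTGG) in capitals where present, because in these genes the bases lie ahead of any annotated start of the gene. The Pax7 window lies inside its GENCODE gene and is not printed.
Crhbp (chr13:95444925-95445081, minus strand): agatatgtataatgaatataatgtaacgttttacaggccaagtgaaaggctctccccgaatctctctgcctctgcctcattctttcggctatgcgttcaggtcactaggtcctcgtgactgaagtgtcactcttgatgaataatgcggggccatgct
Rasgef1a (chr6:118011255-118011437, plus strand): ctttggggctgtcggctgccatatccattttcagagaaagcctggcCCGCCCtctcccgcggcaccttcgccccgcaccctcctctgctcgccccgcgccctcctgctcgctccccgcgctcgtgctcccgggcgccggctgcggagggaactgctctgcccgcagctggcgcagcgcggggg
Dsel (chr1:111864919-111865168, minus strand): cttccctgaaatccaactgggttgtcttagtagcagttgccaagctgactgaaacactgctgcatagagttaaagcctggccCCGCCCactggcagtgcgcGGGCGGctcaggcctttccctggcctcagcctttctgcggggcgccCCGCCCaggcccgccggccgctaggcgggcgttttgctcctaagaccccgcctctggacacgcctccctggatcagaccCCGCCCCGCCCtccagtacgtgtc
Clstn3 (chr6:124464795-124465034, minus strand): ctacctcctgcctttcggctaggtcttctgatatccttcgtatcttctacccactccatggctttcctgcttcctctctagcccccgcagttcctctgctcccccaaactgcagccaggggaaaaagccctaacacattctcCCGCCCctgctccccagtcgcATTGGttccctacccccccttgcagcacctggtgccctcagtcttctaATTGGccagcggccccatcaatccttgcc

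Each of 6 motifs was searched on both strands of the 300 bases. The GC box was found in 4 of the 5 genes (Pax7, Rasgef1a, Dsel and Clstn3) and in 35.7% of all 32841 start regions. Dsel had 6 of them, 2 of which overlap by 1 base, and Rasgef1a had 4 at each start; some lie past the printed stretch. A TATA box (TATAAA or TTTATA; 13.6% of all start regions) was found in Crhbp alone of the 5, from base 31 after the RefSeq start. A cyclic AMP response element (TGACGTCA, its own reverse complement; 1.79% of all) was found in Clstn3 alone, beginning 1 base before the start, beside 2 CCAAT boxes (37.4% of all). A RUNX motif (TGTGGT or ACCACA; 16.8% of all) was found at the second start of Rasgef1a, and an E-box (CACGTG; 7.15% of all) in none. CpG dinucleotides numbered 48 at the first start of Rasgef1a, above 98.8% of all start regions, 23 in Dsel, 17 in Pax7, 9 in Crhbp and 8 at the first start of Clstn3. The median over all start regions was 7, so Rasgef1a stood far above it and Crhbp and Clstn3 near it. No searched motif was in all 5 genes.

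Reads of the targeted gene were lower in every knockout library. Phf6 (GRCm38 chromosome X, 52912266 to 52956943, plus strand) had 5508, 4240 and 5075 normalised reads with Phf6 intact and 1781, 2337 and 1755 without it. Its mean went to 39.6% of wild type (log2 scale -1.34 ± 0.13 SE, adjusted p = 0.00184 by limma). The counts do not separate exons, and no source used here says which were removed. As a yardstick, the fall of each of the 7 genes was larger than that of Phf6. This held in each of the 16 other settings tried (other scaling, filters, pseudocounts or tools, a replicate block, and each library left out). The 7 were chosen for deep falls in these same libraries, so this order is a description only.

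**Figure D1:**
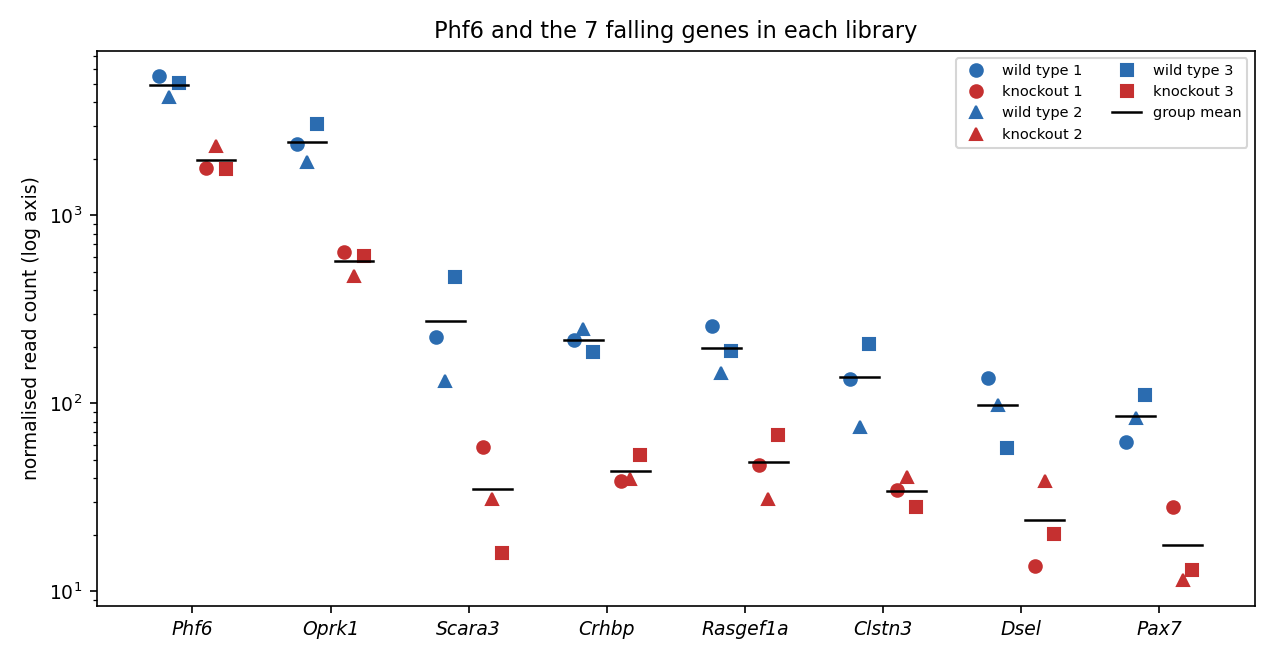
Normalised read counts of Phf6 and the 7 genes in each library, on a log axis, with wild type in blue, knockout in red, the marker shape giving the library number and black bars the group means. For all 8 genes every knockout point lies below every wild-type point, and the gap is narrowest for Dsel, whose lowest wild-type value is 1.51 times its highest knockout value.

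All 7 genes passed the filter for testing (3 or more libraries reaching a normalised value of 10), and all 7 had knockout values below every wild-type value. Over the 17993 genes tested, 16.2% were arranged in that way and 8.75% were called, 3.43% lower and 5.32% higher (limma with Benjamini-Hochberg adjustment, threshold 0.05); all 7 were called lower, which the choice of the genes fixes. In numbers, 618 genes were lower and 957 higher, and scaling by library totals instead gave 300 and 1217. Their median log2 fold change was -2.08, against -0.01 over all tested genes. The knockout means were between 12.8% (Scara3) and 24.8% (Clstn3) of the wild-type means. The 14 tested T-lineage markers, listed by cell type, had a median log2 fold change of -0.28. The 7 were chosen for deep falls, so the medians are not like for like. Whether cell make-up has a part in the falls was not tested.

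The receptor gene Oprk1 was the one abundant transcript of the 7. Oprk1 (ENSMUSG00000025905; GRCm38 chromosome 1, 5588466 to 5606131, plus strand, protein coding) had 2404, 1929 and 3053 normalised reads with Phf6 intact and 641, 473 and 608 without it. Wild-type library 2 was the lowest of its group, at 3.01 times the highest knockout library. The means were 2462 ± 564 and 574 ± 89.0 (SD, n = 3 each), and the estimated log2 fold change was -2.08 ± 0.18 (SE). Per length of exon, its level was 5.46 ± 1.27 RPKM (reads per kilobase of exon, scaled to library depth) in wild type and 1.27 ± 0.20 in knockout (SD, n = 3). That placed it above 56.9% of tested genes in wild type and above 33.3% in knockout. Phf6, on the same scale, was above 77.1% and 58.0%.

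Crhbp, the gene of the CRH-binding protein, had the tightest values of the 7 within wild type. Crhbp (ENSMUSG00000021680; chromosome 13, 95431371 to 95444924, minus strand) had 217, 248 and 188 normalised reads with Phf6 intact and 38.6, 39.5 and 53.2 without it. Its lowest wild-type value was 3.54 times its highest knockout value, the widest gap among the 7. The means were 218 ± 30.0 and 43.7 ± 8.17 (SD, n = 3 each), and the estimated log2 fold change was -2.27 ± 0.21 (SE). The coefficient of variation in wild type was 13.8%. Crhbp was also the single gene of the 7 that was highest in wild-type library 2. Its level per length was 2.45 ± 0.33 RPKM in wild type and 0.49 ± 0.09 in knockout (SD, n = 3).

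Scara3, the scavenger receptor family gene, had the deepest and the most variable fall. Scara3 (ENSMUSG00000034463; chromosome 14, 65919394 to 65953935, minus strand) had 226, 131 and 467 normalised reads with Phf6 intact and 58.4, 31.2 and 16.0 without it. Values spread 3.56-fold within wild type and 3.64-fold within knockout, each wider than the 2.25-fold gap between the groups. The means were 275 ± 173 and 35.2 ± 21.5 (SD, n = 3 each), and the estimated log2 fold change was -2.88 ± 0.58 (SE). It was -2.40 to -3.31 when 1 library at a time was left out.

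Pax7, the satellite cell factor, was the scarcest of the 7 per length. Pax7 (ENSMUSG00000028736; chromosome 4, 139737062 to 139833528, minus strand) had 62.1, 83.9 and 111 normalised reads with Phf6 intact and 28.2, 11.4 and 13.04 without it, which rest on at least 62 and at most 27 reads per library. Wild-type library 1 and knockout library 1 came nearest to each other, with a 2.20-fold gap. The means were 85.7 ± 24.6 and 17.5 ± 9.23 (SD, n = 3 each), and the estimated log2 fold change was -2.23 ± 0.36 (SE). Its level was 0.30 ± 0.09 RPKM in wild type and 0.06 ± 0.03 in knockout (SD, n = 3), above 15.8% and 1.501% of tested genes.

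Rasgef1a, the RAS exchange factor gene, was lower in all knockout libraries by about the same factor as Oprk1. Rasgef1a (ENSMUSG00000030134; chromosome 6, 118011438 to 118091546, plus strand) had 257, 144 and 189 normalised reads with Phf6 intact and 46.9, 31.2 and 68.2 without it. The library numbered 2 was the lowest of both groups. The means were 197 ± 56.9 and 48.8 ± 18.6 (SD, n = 3 each), and the estimated log2 fold change was -2.00 ± 0.31 (SE). The gene holds Mir7044 on its own strand, and no other of the 7 overlaps another annotated gene on either strand.

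Dsel, the epimerase gene, had the smallest gap between the groups. Dsel (ENSMUSG00000038702; chromosome 1, 111858702 to 111864918, minus strand) had 137, 97.8 and 57.8 normalised reads with Phf6 intact and 13.6, 38.4 and 20.1 without it. Knockout library 2 was its highest knockout library, whereas for Oprk1, Pax7 and Rasgef1a it was the lowest. The means were 97.6 ± 39.6 and 24.0 ± 12.9 (SD, n = 3 each), and the estimated log2 fold change was -1.97 ± 0.41 (SE).

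Clstn3, calsyntenin 3, had even values in knockout and uneven ones in wild type. Clstn3 (ENSMUSG00000008153; chromosome 6, 124430759 to 124464794, minus strand) had 134, 75.1 and 206 normalised reads with Phf6 intact and 34.4, 40.5 and 28.1 without it. The coefficient of variation was 47.4% in wild type and 18.1% in knockout. The means were 138 ± 65.6 and 34.3 ± 6.21 (SD, n = 3 each), and the log2 fold change, -1.85 ± 0.34 (SE), was the smallest of the 7.

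Per length, the order in wild type was Oprk1, Crhbp, Scara3 (1.55 ± 0.98 RPKM), Rasgef1a (1.19 ± 0.34), Clstn3 (0.57 ± 0.27), Dsel (0.34 ± 0.14) and Pax7 (SD, n = 3 for each). Oprk1 lay apart from Crhbp by more than their spreads; so did Rasgef1a from Clstn3, whereas Crhbp and Scara3, Scara3 and Rasgef1a, Clstn3 and Dsel, and Dsel and Pax7 differed by less than the larger SD of the pair. Of the 7, 6 were below the median of tested genes in wild type. Wild-type library 2 was the lowest wild-type library for Oprk1, Scara3, Rasgef1a and Clstn3 and the highest for Crhbp. Pax7 was lowest in wild-type library 1, and Crhbp and Dsel in wild-type library 3. Neutrophil marker sums were highest in library 2 of both groups (476 and 1333 CPM). Knockout library 2 was the highest knockout library for Dsel and Clstn3 and the lowest for Oprk1, Pax7 and Rasgef1a. Whether neutrophil content has a part in these levels was not tested. In the knockout no library was the lowest for more than 3 of the 7.

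**Figure D2:**
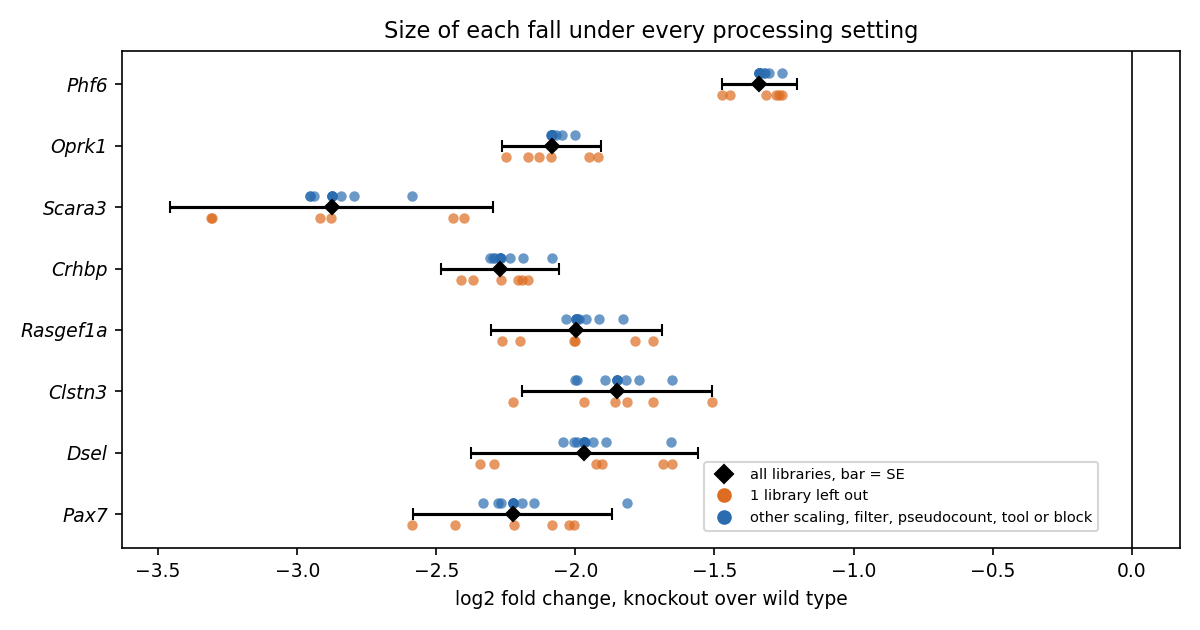
Change of Phf6 and the 7 genes on the log2 scale (knockout over wild type). Black diamonds use all libraries with the SE as a bar, orange points leave out 1 library and blue points use another scaling, filter, pseudocount, tool or the replicate block. Oprk1 stays between -2.25 and -1.92 and Scara3 spreads from -3.31 to -2.40, and no point of the 7 genes is above -1.51.

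The log2 fold changes run on past the 7 without a break. In all, 23 tested genes were as low as Clstn3 or lower. Among called genes with groups that did not overlap, a mean of at least 1 CPM and a name that is neither provisional nor that of a pseudogene, Clstn3 (-1.85) was followed by the T cell receptor segment Tcrg-C1 (-1.81) and then by Atp6ap1l (-1.73), Naip5 (-1.73), Tmem132b (-1.71), the segment Tcrg-C4 (-1.63), Arl10 (-1.61) and Cpsf4l (-1.60). Vmn2r95, a vomeronasal receptor gene, would have met the same limits at -2.17 but is not among the 7. Its values were 312, 102 and 171 normalised reads with Phf6 intact and 29.2, 23.9 and 75.2 without it.

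Genes of the same families and pathways were listed by function with the 7 themselves left out. More of them rose than fell. Of 206 listed genes 137 were tested, of which 15 rose and 3 fell, so that 13.1% were called beside 8.75% of all tested genes; their median log2 fold change was 0.08. Single libraries moved the count: 18 genes were called with all libraries, 7 and 8 when wild-type library 1 or 3 was left out, and 11 and 5 when knockout library 2 or 3 was. With a mean of at least 1 CPM required, 9 were called, 6 higher and 3 lower. Over all tested genes 5.32% were called higher and 3.43% lower. Genes that reach a value of 10 in knockout alone also enter through the main filter, as did Pax8, Rapgef5 and Rap2b. If called, such genes can count only as rises.

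Among opioid receptors, peptides and Gi signalling genes, 3 of 28 tested rose and none fell by limma. That is 10.7% called, near the 8.75% over all tested genes. Before adjustment 6 were higher and 4 lower at a p under 0.05, and 0 were called lower by either edgeR or DESeq2. Oprl1, the nociceptin receptor gene and a close relative of Oprk1, went the other way. It had 5.01, 16.8 and 10.8 normalised reads with Phf6 intact and 40.7, 32.2 and 48.1 without it, so the groups did not overlap (1.81 ± 0.39 SE on the log2 scale; adjusted p = 0.0217, limma). The call was lost without wild-type library 1, knockout library 1 or knockout library 3 (limma adjusted p = 0.0692, 0.0597 and 0.111). Oprm1, the mu opioid receptor gene, had a mean of 13.1 ± 1.25 normalised reads in wild type and 23.1 ± 13.03 in knockout and did not pass (adjusted p = 0.352). Penk, which encodes the enkephalin precursor, was too low to test at 2.71 to 12.5 normalised reads. Grk3, a receptor kinase that desensitises such receptors, rose by 1.77 and Gng7, a G protein gamma subunit, by 0.80 on the log2 scale. Grk3 lost its call without knockout library 3 and Gng7 without any 1 of the 6 libraries.

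Of the CRH family little was measurable. Of 9 listed genes 2 were tested, Pcsk1 and Ucn2, of which 1 rose (50% called, beside 8.75% over all tested genes). Pcsk1, a convertase that cuts prohormones, went up from 442 ± 75.1 normalised reads to 1044 ± 206 (SD over 3 libraries per group; 1.23 ± 0.17 SE on the log2 scale; limma adjusted p = 0.00431). It kept its call in each of the 16 other settings. Ucn2, the gene of urocortin 2, a hormone of the CRH family, had 19.0, 30.6 and 34.3 normalised reads in wild type and 51.1, 41.5 and 61.2 in knockout and did not pass (0.85 ± 0.29; adjusted p = 0.101). Crh and the receptors Crhr1 and Crhr2 had no entry under these symbols among the deposited values. Neither tested gene fell: limma, edgeR and DESeq2 each called 0 lower, and 0 were lower before adjustment at a p under 0.05. With 2 genes tested, these counts say little about the family.

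Scavenger receptor genes that passed the test all rose, unlike Scara3. By limma 3 of the 10 tested rose (30% called, beside 8.75% over all tested genes). None fell by limma, edgeR or DESeq2 (0 lower before adjustment at a p under 0.05), and the median log2 fold change was 0.57. The lectin-like receptor gene Olr1 rose by 2.79 ± 0.51, the class A receptor gene Msr1 by 1.81 ± 0.47 and the macrophage lysosomal gene Cd68 by 0.55 ± 0.12 (limma adjusted p = 0.0129, 0.0461 and 0.026). All 3 are expressed by myeloid cells, whose marker sums were higher in the knockout as given above. Cd68 is itself one of the 13 monocyte and macrophage markers, and the part of such cells in these rises was not tested. Each lost its call without knockout library 3, and Msr1 and Cd68 also without wild-type library 1, wild-type library 3 or knockout library 2. Msr1 also lost it with a pseudocount of 0.5 (limma adjusted p = 0.0511). The paralog Scara5 had no entry under this symbol among the deposited values.

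In the list of PAX factors, their cofactors and myogenic genes, 2 of 11 rose by limma (18.2% called, beside 8.75% over all tested genes). None fell by limma, edgeR or DESeq2 (0 lower before adjustment at a p under 0.05). Dach1, a partner of EYA factors, had 10.01, 18.8 and 9.04 normalised reads with Phf6 intact and 104, 84.1 and 88.3 without it (2.74 ± 0.30; limma adjusted p = 0.00259), and it kept its call in each of the 16 other settings. Pax8, a relative of Pax7, went from 2.62 ± 1.56 to 13.7 ± 4.46 normalised reads and lost its call in DESeq2 (adjusted p = 0.0517) and when any 1 library other than wild-type library 2 was left out. Skeletal muscle markers, of which 7 of 11 were measured, summed to 16.8 to 18.3 CPM in wild type and 17.6 to 20.5 CPM in knockout. The ranges overlap, and 2 of the 6 tested markers rose. The paralog Pax3 had no entry under this symbol among the deposited values.

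Of 39 tested RAS family genes, 2 rose and 1 fell, which is 7.69% called, near the 8.75% over all tested genes. Their median log2 fold change was 0.05. Rap2b, a RAS-like GTPase, rose from 6.51 ± 2.72 to 51.7 ± 14.8 normalised reads (2.67 ± 0.36; limma adjusted p = 0.00431), and Rapgef5, a RAP exchange factor gene, by 1.76. Rasal3, a GTPase-activating protein gene of blood cells and abundant here, fell from 19500 ± 1884 to 13918 ± 1361 normalised reads (-0.49 ± 0.10; adjusted p = 0.0201). Its call was lost without any 1 library other than wild-type library 2 and with library totals as the scaling (limma adjusted p = 0.0520). Rapgef5 lost its call on the same single libraries and in DESeq2 (adjusted p = 0.0641). The paralog Rasgef1b was low and uneven, at 2.00, 19.8 and 3.62 normalised reads in wild type and 4.17, 46.7 and 13.04 in knockout, and did not pass (adjusted p = 0.501).

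Genes of dermatan and chondroitin sulfate synthesis, the pathway of Dsel, went either way. Of 30 tested members 2 rose and 1 fell by limma (10% called, beside 8.75% over all tested genes). DESeq2 called 7 higher and 2 lower, and edgeR 3 higher and 1 lower. The carrier gene Acan had the lowest estimate of all the lists but did not pass (-1.69 ± 0.45; limma adjusted p = 0.0801). Vcan, also a carrier gene, was higher without passing (2.18 ± 0.53; limma adjusted p = 0.0639). Chst11, a chondroitin 4-O-sulfotransferase gene, was the largest called fall of all the lists: it had 740, 527 and 515 normalised reads with Phf6 intact and 241, 264 and 371 without it. The groups did not overlap (-1.03 ± 0.20; limma adjusted p = 0.0152; 0.0699 without wild-type library 1). Chst13, another 4-O-sulfotransferase gene, rose by 3.22 ± 0.65 from values of 0, 12.8 and 4.52 to 63.6, 43.6 and 50.1, and Papss2, which makes the sulfate donor, rose by 0.96. Chst13 lost its call with a pseudocount of 0.5 (limma adjusted p = 0.0790) and without wild-type library 3, knockout library 1 or knockout library 3, and Papss2 without any 1 library other than knockout library 1. The paralog Dse was higher in every knockout library (9.09 ± 3.31 against 29.4 ± 13.03 normalised reads) but missed the limma threshold (1.45 ± 0.42; adjusted p = 0.0585). It passed with edgeR (adjusted p = 0.0489) and with DESeq2 (adjusted p = 0.0388). In limma it passed without wild-type library 2 or knockout library 1 (adjusted p = 0.0471 and 0.0376) and under the replicate block, as given below.

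Among calsyntenin relatives and their partners, 2 of 17 tested rose and 1 fell (17.6% called, beside 8.75% over all tested genes). App, the amyloid precursor gene, whose protein is linked to calsyntenins through the X11 adaptors, rose from 180 ± 87.3 to 949 ± 144 normalised reads (2.48 ± 0.30; limma adjusted p = 0.0047) and kept its call in each of the 16 other settings. The X11 adaptor genes split, Apba1 rising by 1.49 and Apba3 falling by 0.36 on the log2 scale. Apba1 lost its call without any 1 library other than wild-type library 2, with a pseudocount of 0.5, and in edgeR and DESeq2 (adjusted p = 0.0528 and 0.0570). Apba3 lost it without any 1 library other than knockout library 1 and with upper-quartile or total scaling (limma adjusted p = 0.0614 and 0.0909). The paralog Clstn1 had 1344, 991 and 1305 normalised reads with Phf6 intact and 1561, 1449 and 1582 without it. The knockout values were all higher, but the difference did not pass (0.35 ± 0.13; adjusted p = 0.117). Of 12 neuronal markers 3 were measured, summing to 51.9 to 57.8 CPM in wild type and 59.8 to 72.6 CPM in knockout, most of it from Map2; their median log2 fold change was -0.54, the opposite sign to the sum, and none was called.

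**Figure D3:**
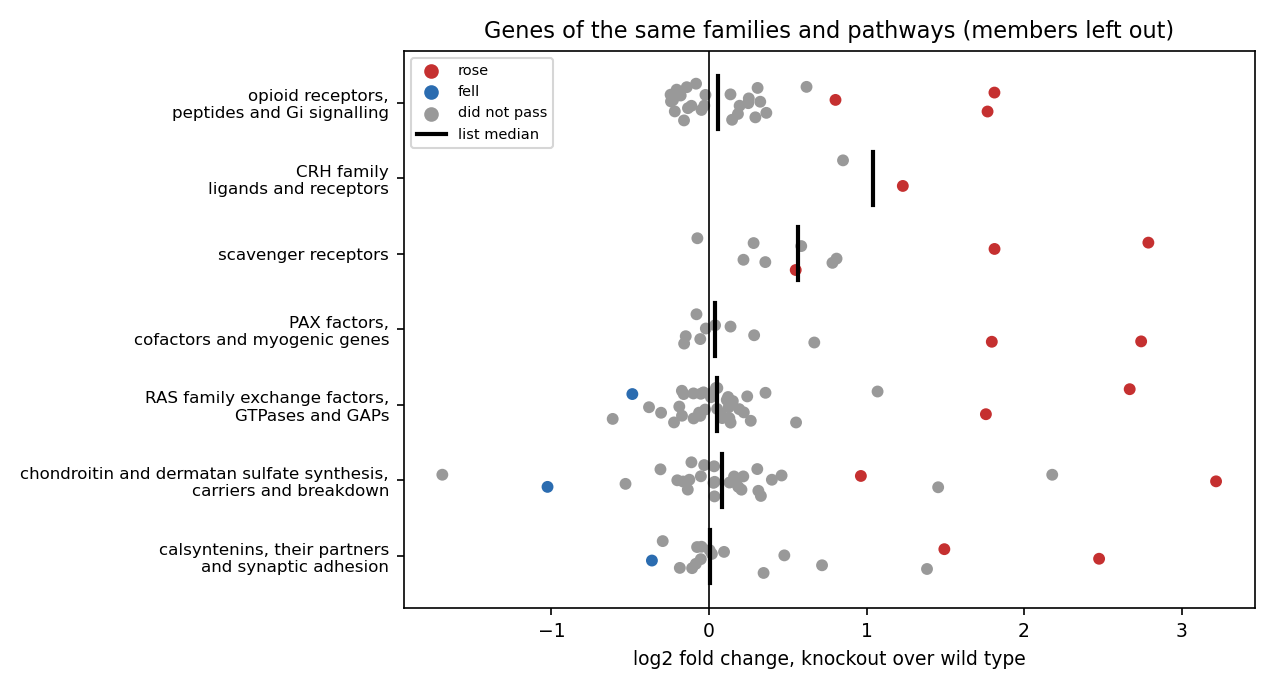
Change on the log2 scale (knockout over wild type) of tested genes in each family or pathway list with the 7 genes left out, each point a gene; red points rose, blue points fell, grey points did not pass and black bars are list medians. The list medians run from 0.00 for the calsyntenin list to 1.04 for the CRH list, which holds only 2 tested genes. The 3 blue points are Rasal3, Chst11 and Apba3.

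The 7 genes lie on 5 chromosomes, and none of their tested neighbours passed as lower. For each gene the 3 nearest protein-coding genes on each side were taken, 42 in all, of which 24 could be tested. By limma 1 of the 24 (4.17%) rose and none fell, beside 8.75% called over all genes. Before adjustment 5 of the 24 were lower and 5 higher at a p under 0.05. By edgeR 0 were called lower and 1 higher, and by DESeq2 1 lower and 2 higher. With 1 library left out, limma called 3 neighbours without wild-type library 2 or knockout library 1 (1 lower in each case) and 0 without knockout library 3. The median log2 fold change of the 24 was -0.09. The neighbour that rose is C1rl, a complement protease gene that lies 28.3 kb from Clstn3. It had 8.01, 30.6 and 9.04 normalised reads with Phf6 intact and 82.4, 101 and 111 without it (2.70 ± 0.43; limma adjusted p = 0.0076; 0.0637 without knockout library 3).

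Around Oprk1, the 4 tested neighbours had log2 fold changes of -0.22 to 0.27, and the nearest of them, Atp6v1h, is 426 kb away. Around Rasgef1a all 6 were tested and lay between -0.36 and 0.40, with Csgalnact2, itself a gene of chondroitin sulfate synthesis, 15.9 kb away at 0.40 ± 0.12 (adjusted p = 0.0679). Around Pax7 the 2 tested neighbours were below 0 without passing, Aldh4a1 at -0.33 and Arhgef10l at -0.70 (limma adjusted p = 0.125 and 0.0638). The 4 tested neighbours of Scara3 all lay below 0, between -0.35 and -0.09, and the 4 of Crhbp between -0.17 and 1.51. None of these passed. All 4 tested neighbours of Clstn3 lay above 0. Among them were the macrophage receptor gene Cd163 at 0.78 and the complement gene C1ra at 1.06, neither of which passed. None of the 6 neighbours of Dsel, which stands alone with 881 kb to the nearest, had values high enough to test. Hprt, 31.2 kb from the deleted Phf6, was at -0.21 and did not pass.

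**Figure D4:**
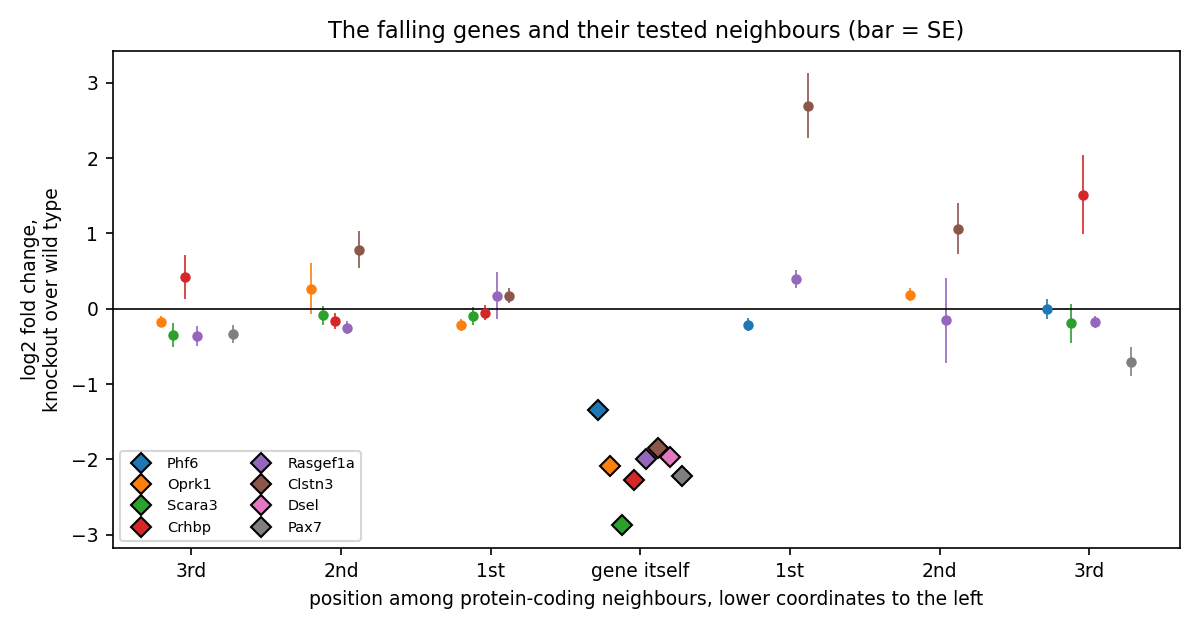
Change on the log2 scale (knockout over wild type) of Phf6 and the 7 genes (diamonds) and of their tested protein-coding neighbours (points, with the SE as a bar), by order of position; no distances are drawn. The diamonds lie between -1.34 and -2.88, and the lowest neighbour, Arhgef10l beside Pax7, is at -0.70.

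Genes with the most similar profile over the 6 libraries were found by Pearson's r on the log2(value + 2) scale among 11041 genes with a mean of at least 1 CPM. With 6 points, libraries and scaling in common, and genes chosen for a group difference, r is a description only, and it takes no account of the size of a change. For Oprk1 the most similar were G6pc3 (r = 0.996) and Ift43 (0.993), for Crhbp Timp2 (0.998) and Ccs (0.992), for Scara3 Aaas (0.996) and Mrpl42 (0.993), and for Pax7 Stra6l (0.995) and Tsfm (0.993). For Rasgef1a they were Wdr59 and Dok2 (0.997 for both), for Dsel Trappc13 (0.998) and Isyna1 (0.994), and for Clstn3 Galnt12 (0.992) and Cad (0.99). The 14 genes differ from each other, and 13 of them had log2 fold changes between -0.66 and -0.12, far smaller than those of the 7. The exception was Stra6l, at -1.17. Among the 7 themselves, r ran from 0.66 for Pax7 and Dsel to 0.96 for Scara3 and Clstn3.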

How the data were processed

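PolyA RNA of 6 mouse T-ALL samples was measured by paired-end sequencing of 150 bases with a NEBNext Ultra kit, per the labels' protocols. The submitters' processing notes list GRCm38, featureCounts, DESeq2, STAR 2.6.0a and bcl2fastq 1.8.4; annotation, strand setting and handling of multi-mapping reads were not found in any source used here. The deposited values are a signal: the authors had divided each library's read counts by 1 factor. That is inferred from the numbers, since 100% of a library's values were whole multiples of 1 step (tolerance 0.01). The 8 rows lacking an identifier (at most 0.00106% of reads) were left out.

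Limma 3.58.1 in R 4.3.3 (trend, robust, group as its term) was run on log2(value + 2), which understates changes of low genes. A gene was tested if 3 or more libraries reached a value of 10 (17993 genes), with Benjamini-Hochberg adjustment over all of these. CPM and RPKM used edgeR's TMM factors, and RPKM also GENCODE M21 exon lengths. As alternatives, edgeR 4.0.16 and DESeq2 1.42.0 were run on the recovered reads, and scaling, filter, pseudocount, replicate block and each library were varied. Groups and replicate numbers came from the labels. The procedure was tested on simulated counts with the same dispersion for all genes and independent libraries. That test does not cover the dependence on single libraries given below. The 7 genes, the gene lists and the naming rule were chosen with earlier results of these data known. Genes named were the 7, Phf6, paralogs, up to 4 called genes per list, called neighbours, the next genes in the order of falls and the 2 most similar profiles. Penk, Ucn2, Acan, Vcan, Map2 and neighbours that were not called were named after their values were seen. Plots used matplotlib 3.10.9 under Python 3.11.15.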

Additional observations from a re-analysis of the deposited data

How the results depend on the processing

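The log2 fold changes of the 7 genes and of Phf6 kept their direction in all 16 other settings. The falls of the 7 also stayed larger than that of Phf6. With 1 library left out the direction could not change, since the groups of these genes do not overlap. The 7 were chosen for deep falls in these same libraries, so their order against Phf6 is a description only. Counts moved more. The replicate block gave 2568 called genes in place of 1575 (1459 higher, 1109 lower), 29 related genes in place of 18 and 4 neighbouring genes in place of 1. Of the called related genes and the paralogs, Dse and Clstn1 newly passed under the block (limma adjusted p = 0.0259 and 0.0412) and none lost its call. Libraries share only a number: deviations from the group means correlated at 0.0121, 0.5 and 0.143 for numbers 1 to 3, and number 2 alone correlated best with its own number. Library totals as scaling gave 300 lower calls in place of 618 and 2 neighbouring genes, and upper-quartile scaling also gave 2. DESeq2 called 3 neighbouring genes. A mean of at least 1 CPM gave 9 related genes. Leaving out 1 library gave 253 to 1941 called genes (180 to 1155 higher, 73 to 786 lower), 5 to 21 related genes and 0 to 3 neighbouring genes. The lowest counts came without knockout library 3; called genes also numbered 465 and 665 when wild-type library 1 or 3 was left out and 986 when knockout library 2 was, and omitting knockout library 1 gave 396 lower calls. The cause was not tested. For Pax7, which has 11 to 27 reads per knockout library, counting error limits the precision.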
